A study of Mus musculus with 12 samples.

Results

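The 10 genes described here are the Toll-like receptors Tlr1, Tlr2, Tlr3, Tlr4, Tlr6, Tlr7, Tlr8, Tlr9, Tlr11 and Tlr13, taken by symbol from the 28188 genes of the deposited count table. All 10 symbols were found. Tlr1, Tlr2, Tlr4 and Tlr6 are treated as the 4 surface receptors, and Tlr3, Tlr7, Tlr8, Tlr9, Tlr11 and Tlr13 as the 6 endosomal receptors. The table also holds the family members Tlr5 and Tlr12, which are not among the 10, and statements on the surface receptors are about those 4 unless Tlr5 is named. RNA was taken from the spleens of 12-week-old mice of the strains NOD and NOD.Idd2. NOD mice develop autoimmune diabetes spontaneously and were the control strain. NOD.Idd2 mice share the NOD background but have the Idd2 locus of B10 origin. B cells and dendritic cells of both strains gave 4 groups of 3 poly(A)-selected libraries each. How the cells were isolated, how many mice stand behind a library, and whether libraries of 1 group come from separate mice are not given in the labels, so the spread behind each p-value may be technical.

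Toll-like receptors are membrane proteins that bind microbial molecules and signal through a shared cytoplasmic domain, most of them through the adaptor Myd88 to NF-kappa-B and interferon regulatory factors. The surface receptors bind lipoproteins and lipopolysaccharide. The endosomal receptors depend on the chaperone Unc93b1 to leave the endoplasmic reticulum, and bind nucleic acids or, for Tlr11, the protozoan protein profilin. In the spleen they are known for driving dendritic cells to present antigen and secrete cytokines, and for driving B cells to divide and secrete antibody.

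The 10 genes lie on 6 autosomes and the X chromosome of GRCm38. Among the surface receptors, Tlr1 lies at chr5:64924679-64933563 and Tlr6 at chr5:64952031-64960097, 18467 bases apart on the same strand. Tlr2 lies at chr3:83836272-83841767 and Tlr4 at chr4:66827584-66930284. Of the endosomal receptors, Tlr3 lies at chr8:45395665-45411080, where the antisense gene Gm45542 overlaps it, and whether the counting used strand is not given in the sources used here, so reads of that pair cannot be told apart. Tlr9 lies at chr9:106222598-106226883 and Tlr11 at chr14:50357914-50363663. The X chromosome holds Tlr13 at chrX:106143204-106160493, Tlr8 at chrX:167242696-167264329 and Tlr7 at chrX:167304929-167330558, the last pair being 40599 bases apart.

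The stretch of 250 bases before an annotated start was read from RefSeq for 8 of the 10 receptors, as 10 promoters on GRCm38.p6. Such a start can lie inside the gene as placed above. Tlr1 and Tlr6 each had a second window. Tlr4 and Tlr7 had no entry. The 4 printed here, each 5′ to 3′ on the strand of its gene, stand for the patterns of level described below: Tlr1 is high in both cell types, Tlr9 has similar means in both, and Tlr8 and Tlr11 are near 0 in B cells. Capitals mark matches to the motifs searched.
Tlr1, chr5:64933559-64933808, minus strand: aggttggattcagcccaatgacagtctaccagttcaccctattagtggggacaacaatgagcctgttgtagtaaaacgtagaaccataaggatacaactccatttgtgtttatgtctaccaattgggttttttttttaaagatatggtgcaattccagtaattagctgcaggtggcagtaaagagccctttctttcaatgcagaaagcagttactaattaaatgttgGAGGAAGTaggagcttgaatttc
Tlr9, chr9:106222348-106222597, plus strand: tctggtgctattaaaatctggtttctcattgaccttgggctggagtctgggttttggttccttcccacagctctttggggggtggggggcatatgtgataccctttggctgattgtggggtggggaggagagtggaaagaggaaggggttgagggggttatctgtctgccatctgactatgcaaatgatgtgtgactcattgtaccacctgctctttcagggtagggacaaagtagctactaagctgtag
Tlr8, chrX:167264330-167264579, minus strand: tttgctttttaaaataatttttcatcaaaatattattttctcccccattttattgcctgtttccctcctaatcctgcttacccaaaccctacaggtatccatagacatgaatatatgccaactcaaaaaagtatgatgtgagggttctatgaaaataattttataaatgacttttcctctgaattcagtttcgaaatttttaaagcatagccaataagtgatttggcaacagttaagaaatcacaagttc
Tlr11, chr14:50357664-50357913, plus strand: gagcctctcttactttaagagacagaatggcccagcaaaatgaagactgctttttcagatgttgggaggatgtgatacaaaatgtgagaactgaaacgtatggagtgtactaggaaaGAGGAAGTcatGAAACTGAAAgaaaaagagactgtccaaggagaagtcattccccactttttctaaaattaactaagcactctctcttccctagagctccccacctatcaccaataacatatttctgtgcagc
Both strands were searched for 3 motifs. The first was GAGGAAGT, the core of a site for the myeloid and B cell factor PU.1. The second was the interferon-stimulated response element, read as GAAA and GAAA with 2 bases of any kind between them. The third was the composite site of PU.1 with an interferon regulatory factor, read as GGAA and GAAA with 2 bases between, which can overlap the second. Of 32851 promoters of this length, 2.44% held the first, 2.98% the second and 2.3% the third. The share of all promoters that held any of the 3 was not counted. Among the 10 receptor promoters 3 held a match. Tlr1 held GAGGAAGT in the window printed, Tlr11 held GAGGAAGT and the response element, and Tlr6 held the response element at 2 overlapping places on the opposite strand. That Tlr6 window, chr5:64959167-64959416, lies inside the gene as placed above. The Tlr6 window at chr5:64960049-64960298 and the Tlr1 window at chr5:64932700-64932949 held no match. The letters searched were not in the Tlr9 and Tlr8 windows.

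The B cell libraries held 40344883 to 44632276 counts. The NOD dendritic cell libraries held 24627488 to 26811142 counts, and those of NOD.Idd2 held 22769062, 30337812 and 8663421 counts, so that replicate 3 is the shallowest. Replicates differed by more than sampling noise in every pair, with a chi-square per gene of at least 3.12. B cell replicate 3 stood farthest from the others, at 37.3 to 42.8 over both strains. Between B cell replicates 1 and 2 the value was 7.28 in NOD and 7.78 in NOD.Idd2. The identity markers followed the labels: Cd79a, a chain of the B cell receptor complex, averaged 1553 CPM (counts scaled to library size) in NOD B cells and 4.13 CPM in NOD dendritic cells, and Itgax, the integrin CD11c, averaged 2.90 and 2126 CPM. The libraries also differed in sex. Xist, expressed from the inactive X chromosome, averaged 2029 CPM in NOD B cells and 1735 CPM in NOD.Idd2 B cells but had 8 and 7 counts in all in the corresponding dendritic cell groups, while the Y-linked Ddx3y was at 0 counts throughout the B cell libraries and averaged 281 and 264 CPM in dendritic cells. Cell type and sex therefore cannot be told apart in any comparison of dendritic cells with B cells, including those of the X-linked Tlr7, Tlr8 and Tlr13.

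To compare receptors with each other, CPM were divided by the length of the annotated exons in kilobases, and these levels are called CPM per kb. Per kb, Tlr1 stood highest in B cells, and in dendritic cells it was followed by a group of 4 endosomal receptors at similar levels. In NOD B cells the order was Tlr1 at 110 ± 4.16 CPM per kb (mean ± SD, n = 3 here and throughout), Tlr9 at 46.9 ± 0.916, Tlr7 at 27.9 ± 1.45, Tlr6 at 17.0 ± 0.345, Tlr4 at 9.38 ± 1.90, Tlr2 at 8.08 ± 0.186 and Tlr3 at 5.58 ± 0.973. Tlr13, Tlr8 and Tlr11 followed, with means from 0.0636 to 0.211 CPM per kb. The libraries of Tlr4 and Tlr2 overlapped, and every other pair of neighbours was apart. The order in NOD.Idd2 B cells differed in that Tlr2 stood above Tlr4, again overlapping, and Tlr8 and Tlr11 overlapped at the foot.

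In NOD dendritic cells Tlr1 stood first at 74.3 ± 6.25 CPM per kb, apart from the rest. Tlr9 at 50.4 ± 6.62, Tlr13 at 45.7 ± 3.40, Tlr7 at 43.8 ± 5.79 and Tlr11 at 42.0 ± 1.88 CPM per kb each overlapped the next, so their order was not resolved. Tlr3 at 18.3 ± 0.862 and Tlr2 at 17.6 ± 0.520 overlapped, and Tlr6 at 13.7 ± 0.898, Tlr8 at 4.47 ± 0.733 and Tlr4 at 2.35 ± 0.0929 CPM per kb closed the order. In NOD.Idd2 dendritic cells Tlr7 stood lower, at 34.4 ± 0.0702 CPM per kb, apart from Tlr9, Tlr11 and Tlr13 above it. The surface receptors made up 64.1% of the summed receptor level per kb in NOD B cells and 63.1% in NOD.Idd2 B cells, with single libraries between 62.7% and 65.2%. In dendritic cells their share was 34.6% in NOD and 35.2% in NOD.Idd2, between 34.0% and 36.3%, so the libraries of the cell types did not overlap. With Tlr5, a surface receptor for bacterial flagellin, counted too, the dendritic cell shares were 38.8% in NOD and 39.0% in NOD.Idd2, and those of B cells stayed at 64.1% and 63.1%. With the length of the longest principal transcript in place of all exons, Tlr2 and Tlr4 changed places in NOD.Idd2 B cells and Tlr11 and Tlr13 in NOD.Idd2 dendritic cells.

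**Figure D1:**
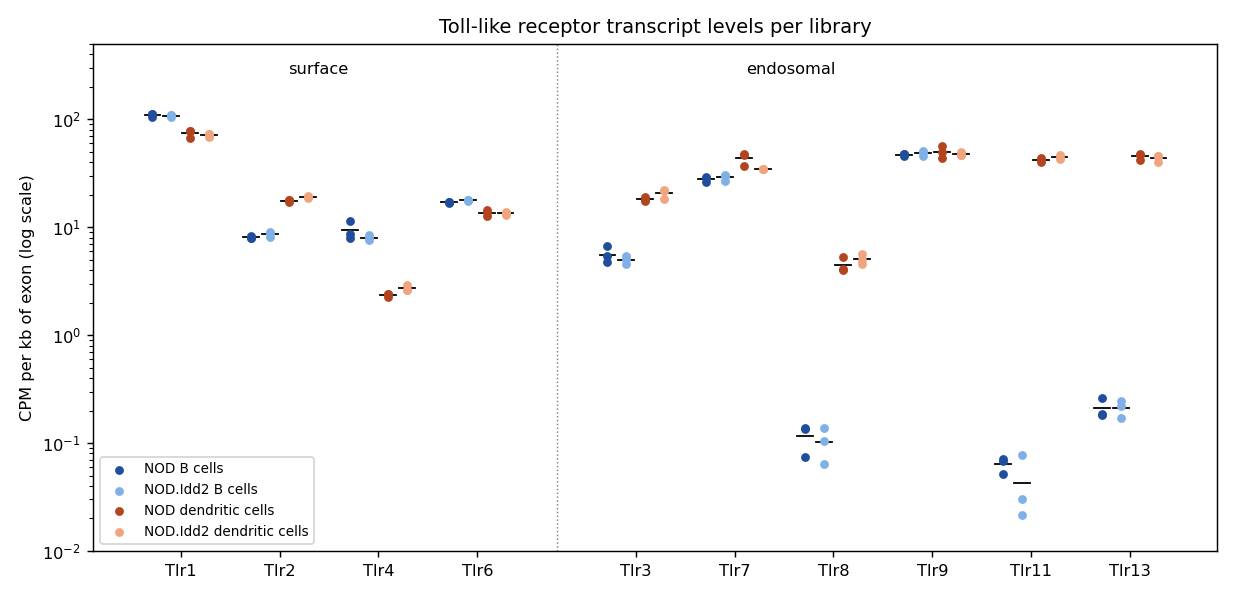
Level of each receptor in CPM per kb of exon (log axis), 1 point per library and a bar at each group mean, surface receptors apart from endosomal ones. Tlr13, Tlr8 and Tlr11 lie far below the others in B cells, while Tlr4 is the lowest receptor in dendritic cells.

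Dendritic cells were compared with B cells within each strain with edgeR's quasi-likelihood test in a fit of all 12 libraries, and a gene counts as called where its Benjamini-Hochberg adjusted p was under 0.05. In NOD 9 of 10 receptors were called, 6 higher and 3 lower in dendritic cells, where 76.4% of all tested genes were called. In NOD.Idd2 the counts were also 9 of 10, 6 higher and 3 lower, against 75.7% of all genes. The libraries of the cell types did not overlap for 9 of 10 receptors in each strain, nor for 77.5% and 78.5% of all genes. A share of 9 in 10 is thus little above the background, and the sizes carry more than the count. Of the surface receptors 3 were lower and 1 higher, and of the endosomal receptors 5 were higher and 1 was not called, in each strain. The median log2 difference was -0.44 over the surface and 3.48 over the endosomal receptors in NOD, and -0.50 and 3.83 in NOD.Idd2, beside -0.04 and -0.06 over all genes. In bulk RNA, fewer cells of a type and less RNA per cell cannot be told apart.

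Tlr1, which with Tlr2 binds triacylated bacterial lipopeptides, had the highest level of the family in every group. It read 351, 377 and 373 CPM in NOD B cells and 260, 261 and 224 CPM in NOD dendritic cells. In NOD.Idd2 the values were 365, 367 and 355 CPM in B cells and 244, 247 and 229 CPM in dendritic cells. Every dendritic cell library thus lay below every B cell library, by 0.56 on the log2 scale in NOD (SE 0.06, edgeR adjusted p = 1.96e-06) and 0.59 in NOD.Idd2 (SE 0.06, adjusted p = 1.26e-06). Tlr6, the partner of Tlr2 for diacylated lipopeptides, moved the same way with a smaller difference. It averaged 63.4 ± 1.28 CPM in NOD B cells and 51.0 ± 3.35 CPM in NOD dendritic cells, a log2 difference of -0.32 (SE 0.05, adjusted p = 9.18e-05). In NOD.Idd2 it averaged 66.5 ± 0.60 and 50.1 ± 1.45 CPM, a log2 difference of -0.41 (SE 0.05, adjusted p = 1.04e-05).

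Tlr2, the shared chain of both pairs, was the 1 of the 4 surface receptors that was higher in dendritic cells. Outside the 10, Tlr5 was also higher there, at 0.103 CPM in NOD B cells and 104 CPM in NOD dendritic cells. Tlr2 read 24.0, 24.1 and 25.0 CPM in NOD B cells and 53.5, 51.2 and 54.2 CPM in NOD dendritic cells. In NOD.Idd2 it read 27.0, 24.4 and 26.4 CPM in B cells and 56.5, 57.9 and 58.2 CPM in dendritic cells. The groups were far apart in both strains, by 2.18-fold in NOD (log2 1.12, SE 0.05, adjusted p = 3.43e-10) and 2.22-fold in NOD.Idd2 (log2 1.15, SE 0.05, adjusted p = 3.00e-10). Since Tlr1 and Tlr6 are known to act as partners of Tlr2, their levels were also set against that of Tlr2 within each library. Tlr1 stood at 13.6 ± 0.454 times the Tlr2 level per kb in NOD B cells and at 12.6 ± 0.801 times in NOD.Idd2 B cells, but at 4.23 ± 0.451 and 3.75 ± 0.186 times in the dendritic cells. Tlr6 was above Tlr2 in B cells, at 2.11 ± 0.0902 and 2.08 ± 0.104 times its level, and below it in dendritic cells, at 0.779 ± 0.0622 and 0.704 ± 0.0103 times. No dendritic cell library overlapped a B cell library in either ratio.

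**Figure D2:**
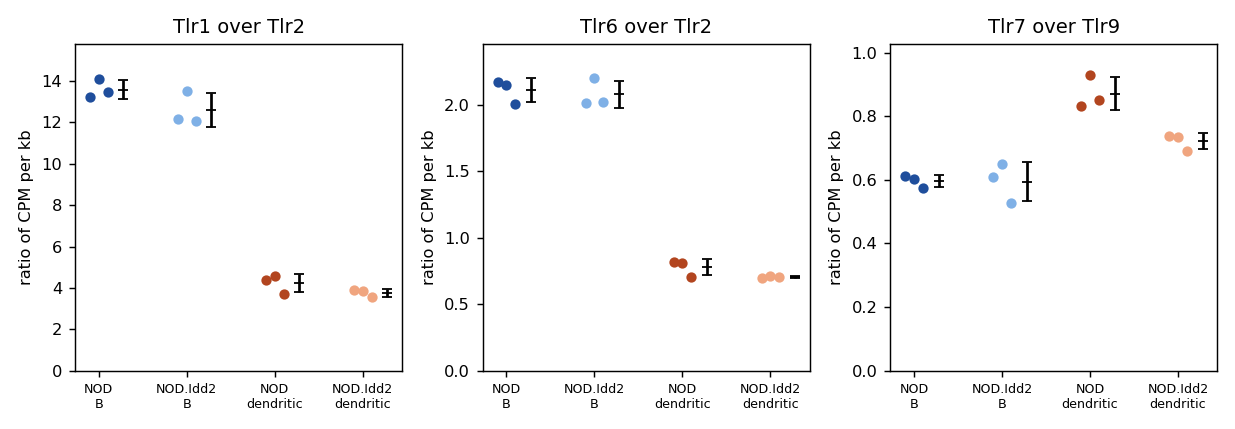
Ratios of levels per kb within each library, for Tlr1 over Tlr2, Tlr6 over Tlr2 and Tlr7 over Tlr9, with group mean and SD. Tlr1 over Tlr2 lies between 12.1 and 14.1 in the 6 B cell libraries and between 3.54 and 4.6 in the 6 dendritic cell libraries.

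Tlr4, the receptor for lipopolysaccharide, had the largest difference of the 4 surface receptors and was lower in dendritic cells. It read 48.4, 64.0 and 43.9 CPM in NOD B cells and 13.4, 13.3 and 12.4 CPM in NOD dendritic cells. In NOD.Idd2 it read 47.2, 43.8 and 42.6 CPM in B cells and 14.6, 14.7 and 16.1 CPM in dendritic cells. NOD B cell replicate 2 stood above the other B cell libraries, and the lowest B cell library was still above every dendritic cell library. The level was 4.0-fold lower in NOD dendritic cells (log2 -2.0, SE 0.12, adjusted p = 6.40e-09) and 2.97-fold lower in those of NOD.Idd2 (log2 -1.57, SE 0.12, adjusted p = 9.05e-08).

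The proteins that present ligand at the surface formed a list of 6 genes, of which 5 were tested. In NOD 1 was higher and 2 lower in dendritic cells, and in NOD.Idd2 2 were higher and 2 lower. Cd14, which hands lipopolysaccharide to Tlr4, averaged 0.231 ± 0.109 CPM in NOD B cells and 8.0 ± 2.73 CPM in NOD dendritic cells (log2 5.09, SE 0.36, adjusted p = 4.28e-08). Cd180, a Toll-like receptor homologue of B cells, fell from 493 ± 19.7 to 296 ± 9.73 CPM (log2 -0.74, SE 0.05, adjusted p = 1.97e-08), and the scavenger receptor Cd36 fell from 174 ± 13.9 to 65.3 ± 10.4 CPM (log2 -1.41, SE 0.11, adjusted p = 8.70e-08). Ly96, the MD-2 subunit without which Tlr4 does not bind its ligand, was low in both cell types, at 5.59 ± 0.317 and 6.32 ± 1.10 CPM in NOD, and was not called there (log2 0.18, SE 0.14, adjusted p = 0.267). In NOD.Idd2 Ly96 was called (log2 0.39, SE 0.14, adjusted p = 0.0234), but not without NOD.Idd2 B cell replicate 1 (adjusted p = 0.0776), B cell replicate 3 (0.0502) or dendritic cell replicate 2 (0.0891).

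Tlr11, Tlr13 and Tlr8 were expressed in dendritic cells and were close to 0 in B cells. Tlr11 had 27 counts in all in the 3 NOD B cell libraries and 18 in those of NOD.Idd2, or 0.208 ± 0.0341 and 0.141 ± 0.0980 CPM. In dendritic cells it read 139, 143 and 131 CPM in NOD and 141, 153 and 145 CPM in NOD.Idd2. The difference was 646-fold in NOD (log2 9.34, SE 0.15, adjusted p = 2.59e-14) and 1002-fold in NOD.Idd2 (log2 9.97, SE 0.16, adjusted p = 2.39e-14), and its size rests on the few B cell counts. Without NOD.Idd2 B cell replicate 3 the NOD.Idd2 difference of Tlr11 was 10.72 on the log2 scale. Tlr13, which binds bacterial ribosomal RNA, had 118 and 115 counts in the B cell groups of NOD and NOD.Idd2, or 0.908 ± 0.196 and 0.913 ± 0.164 CPM. It read 202, 208 and 180 CPM in NOD dendritic cells and 174, 199 and 196 CPM in those of NOD.Idd2. This was 215-fold higher in NOD (log2 7.75, SE 0.13, adjusted p = 4.25e-14) and 207-fold higher in NOD.Idd2 (log2 7.70, SE 0.13, adjusted p = 4.89e-14).

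Tlr8, a sensor of RNA fragments and the X-linked neighbour of Tlr7, had the same pattern at a lower level. It had 54 counts in NOD B cells and 46 in NOD.Idd2 B cells, or 0.415 ± 0.129 and 0.367 ± 0.132 CPM. In dendritic cells it read 19.1, 14.8 and 14.3 CPM in NOD and 17.8, 20.3 and 16.2 CPM in NOD.Idd2. The groups were far apart, by 38.1-fold in NOD (log2 5.25, SE 0.24, adjusted p = 3.88e-10) and 49.4-fold in NOD.Idd2 (log2 5.63, SE 0.24, adjusted p = 2.60e-10). Even so, per kb it stood at 0.102 ± 0.0129 times the Tlr7 level in NOD dendritic cells and 0.147 ± 0.0167 times in those of NOD.Idd2.

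Tlr3, which binds double-stranded RNA and signals through Ticam1, is known in the spleen as a marker of the type 1 conventional dendritic cell. It read 27.9, 34.6 and 24.6 CPM in NOD B cells and 100, 93.8 and 91.3 CPM in NOD dendritic cells. In NOD.Idd2 it read 26.3, 28.4 and 23.6 CPM in B cells and 95.4, 115 and 112 CPM in dendritic cells. Every dendritic cell library was above every B cell library, by 3.27-fold in NOD (log2 1.71, SE 0.11, adjusted p = 2.26e-08) and 4.12-fold in NOD.Idd2 (log2 2.04, SE 0.12, adjusted p = 4.59e-09).

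Tlr7 and Tlr9, which bind single-stranded RNA and unmethylated CpG DNA, are the nucleic acid sensors best known in B cells, and both were well expressed in both cell types. Tlr7 read 118, 117 and 107 CPM in NOD B cells and 194, 191 and 152 CPM in NOD dendritic cells. In NOD.Idd2 it read 125, 121 and 110 CPM in B cells and 140, 140 and 141 CPM in dendritic cells. Dendritic cells were higher in both strains, by 1.57-fold in NOD (log2 0.65, SE 0.08, adjusted p = 1.35e-05) and by 1.19-fold in NOD.Idd2 (log2 0.25, SE 0.08, adjusted p = 0.0183). Tlr9 was the receptor that was called in neither strain. It read 165, 165 and 159 CPM in NOD B cells and 198, 175 and 152 CPM in NOD dendritic cells, a spread of the latter that covers the B cell values. In NOD.Idd2 it read 174, 159 and 178 CPM in B cells and 162, 163 and 173 CPM in dendritic cells. The log2 difference was 0.10 in NOD (SE 0.08, adjusted p = 0.247), with an approximate 95% interval from -0.05 to 0.26, and -0.04 in NOD.Idd2 (SE 0.08, adjusted p = 0.686), with an interval from -0.19 to 0.12. Without NOD dendritic cell replicate 3 the NOD difference was 0.23 and called (adjusted p = 0.00795).

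**Figure D3:**
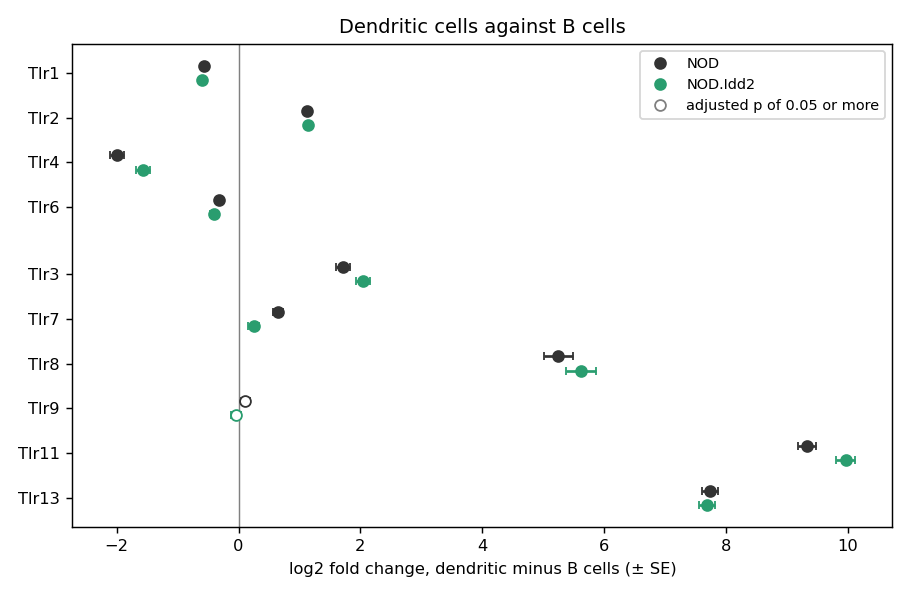
Log2 difference of dendritic cells minus B cells with its SE for each receptor, in NOD and in NOD.Idd2 (open symbols: not called). Tlr2 and the endosomal receptors except Tlr9 lie above 0 in both strains, and Tlr1, Tlr4 and Tlr6 lie below.

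Markers of other cells that a spleen preparation could hold also differed between the cell types, in both directions. The 10 B cell markers were all lower in dendritic cells, with a summed level of 16528 to 17336 CPM in NOD B cells and 572 to 621 CPM in NOD dendritic cells. Of 12 macrophage markers 10 were higher in dendritic cells, with a sum of 43.5 to 48.6 CPM in NOD B cells and 646 to 738 CPM in NOD dendritic cells. Among the 12 Adgre1, the F4/80 antigen, averaged 17.9 ± 2.60 and 278 ± 55.4 CPM, while Cd5l, a gene of splenic red pulp macrophages, had 39 and 27 counts in all. Csf1r, at 309 ± 48.2 CPM, held the largest part of the macrophage sum in NOD dendritic cells. Of 8 monocyte markers 5 were higher and 2 lower, with sums of 169 to 176 CPM and 379 to 551 CPM. Of 9 plasmacytoid dendritic cell markers tested in NOD 5 were higher and 3 lower, with sums of 536 to 544 CPM in B cells and 210 to 260 CPM in dendritic cells, and Siglech, their defining surface gene, read 3.21 ± 0.257 and 13.1 ± 3.38 CPM. In NOD B cells Tcf4, at 376 ± 10.3 CPM, and Ly6d, at 125 ± 9.44 CPM, held most of the plasmacytoid sum. In NOD.Idd2 the sums in B and dendritic cells were 16989 to 17234 and 536 to 585 CPM for B cell markers, 49.3 to 53.5 and 718 to 740 CPM for macrophage markers, 165 to 184 and 587 to 604 CPM for monocyte markers, and 526 to 559 and 243 to 275 CPM for plasmacytoid markers. In NOD 2 of 8 neutrophil markers tested were higher and 2 lower, of 8 natural killer cell markers 1 and 5, and of 8 T cell markers 0 and 1. In NOD.Idd2 these counts were 3 and 0, 2 and 2, and 0 and 1. No marker of these lists was at 0 in a group. The part of these cells in the receptor differences was not tested.

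The rest of the pathway was described by 6 lists of 90 genes, of which 85 were tested between cell types. In NOD 45 were higher and 30 lower in dendritic cells, and in NOD.Idd2 45 and 31, beside 37.7% and 38.7% of all genes higher and lower in NOD and 36.7% and 38.9% in NOD.Idd2. Of 6 adaptors 3 were higher and 2 lower in each strain. Myd88 rose from 38.0 ± 2.04 CPM in NOD B cells to 114 ± 6.13 CPM in NOD dendritic cells (log2 1.59, SE 0.06, adjusted p = 7.17e-11). Ticam2, the bridging adaptor of Tlr4, rose from 4.09 ± 0.533 to 116 ± 2.92 CPM (log2 4.82, SE 0.10, adjusted p = 2.34e-13). Ticam1, the adaptor of Tlr3 and of Tlr4 in endosomes, fell from 41.8 ± 4.6 to 28.6 ± 0.886 CPM (log2 -0.54, SE 0.08, adjusted p = 3.19e-05).

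The list of receptor trafficking and endosomal processing had 9 genes higher and 7 lower of 17 tested in NOD, and 8 and 6 in NOD.Idd2. The secreted nuclease Dnase1l3 had the smallest p, at 13.1 ± 0.0479 CPM in NOD B cells and 1136 ± 134 CPM in NOD dendritic cells (log2 6.44, SE 0.09, adjusted p = 9.37e-15). The related endosomal exonucleases Pld3 and Pld4, which degrade ligands of Tlr9, moved in opposite directions. Pld3 fell from 57.3 ± 2.91 to 7.23 ± 0.577 CPM (log2 -2.99, SE 0.07, adjusted p = 6.18e-13), and Pld4 rose from 240 ± 10.9 to 736 ± 45.8 CPM (log2 1.62, SE 0.05, adjusted p = 1.89e-11). The list of kinases, ubiquitin ligases and transcription factors had 12 higher and 11 lower of 26 in NOD, among them Relb higher (log2 2.72, SE 0.07, adjusted p = 2.01e-12) and the kinase Ikbke lower (log2 -3.04, SE 0.16, adjusted p = 1.77e-09). Of 12 negative regulators 6 were higher and 4 lower in NOD. Irak3, a catalytically inactive kinase that restrains Myd88 signalling, fell from 56.5 ± 2.17 to 5.26 ± 0.710 CPM (log2 -3.43, SE 0.08, adjusted p = 1.09e-12). Of 19 response genes tested 14 were higher and 4 lower in NOD. Among them the cytokine gene Il1b rose from 1.26 ± 0.110 to 294 ± 62.6 CPM (log2 7.86, SE 0.21, adjusted p = 1.87e-12), while Il12a, a subunit of interleukin 12, fell from 27.2 ± 2.89 CPM to 6 counts in all (log2 -8.37, SE 0.27, adjusted p = 1.50e-11).

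In B cells NOD.Idd2 was compared with NOD in the 6 B cell libraries, to ask how expression differs between the strains. None of the 9 receptors tested was called by edgeR's quasi-likelihood test, where 0.16% of all genes were called, and 0 of 9 had an unadjusted p under 0.05, against 6.40% of all genes. DESeq2, limma-voom and the blocked fit on replicate numbers also called 0. Tlr11 was too low to be tested. The log2 differences of the surface receptors were -0.02 for Tlr1 (SE 0.04), 0.09 for Tlr2 (SE 0.06), 0.07 for Tlr6 (SE 0.04) and -0.23 for Tlr4 (SE 0.14). The Tlr4 interval, from -0.50 to 0.04, was the widest of these and goes with the high NOD replicate 2 given above. Tlr6 was the receptor whose libraries did not overlap, at 62.0 to 64.4 CPM in NOD and 66.0 to 67.2 CPM in NOD.Idd2, and 12.8% of all genes were apart in this way. Compared within same-numbered libraries, 5 of 9 receptors had the same direction in all 3 pairs, Tlr2, Tlr6 and Tlr7 higher and Tlr3 and Tlr4 lower in NOD.Idd2, as did 37.8% of all genes, and the blocked fit called none of them. Among the endosomal receptors the log2 differences were 0.05 for Tlr7 (SE 0.06), 0.06 for Tlr9 (SE 0.05) and -0.16 for Tlr3 (SE 0.13), and those of the barely expressed Tlr8 and Tlr13 had SEs of 0.38 and 0.24. Tlr9 shares chromosome 9 with 10 of the 24 genes called in B cells, which lie between 37227585 and 48431959, 57.8 Mb from it. Tlr4 lies 2.92 Mb from Gm11222, the 1 gene called on chromosome 4. Tlr2 lies 16.4 Mb from Lxn, the nearest of 4 called on chromosome 3.

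In dendritic cells 0 of 10 receptors were called by edgeR, where 1.29% of all genes were called. Outside the 10, Tlr12 was called higher in NOD.Idd2 (log2 0.50, SE 0.10, edgeR adjusted p = 0.0408). It averaged 9.85 ± 0.663 CPM in NOD and 13.7 ± 0.963 CPM in NOD.Idd2, and its call was not examined under the alternatives. Tlr5 was not called (log2 -0.17, SE 0.07, adjusted p = 0.321). At an unadjusted p under 0.05 there were 4 of 10, namely Tlr2, Tlr3, Tlr4 and Tlr7, against 11.3% of all genes. DESeq2 called 1 receptor, Tlr7, and limma-voom 0. Libraries of the strains did not overlap for 3 of the 10 receptors, Tlr2 and Tlr4 above and Tlr7 below in NOD.Idd2, a separation that 16.5% of all genes had. Of the 10, Tlr7 had the largest difference. Its NOD values of 194, 191 and 152 CPM all lay above the NOD.Idd2 values of 140, 140 and 141 CPM, with replicate 3 of NOD well below its group. The log2 difference was -0.33 (SE 0.08, edgeR adjusted p = 0.0804), with an approximate 95% interval from -0.49 to -0.17. The call depended on the setting: the adjusted p was 0.00493 with DESeq2, 3.95e-06 with no filter on low counts and 0.000670 without NOD dendritic cell replicate 3, where the difference was -0.44, and between 0.0612 and 0.359 in the other alternatives. That library had the lowest value of its group for 9 of the 10 receptors, while 33.7% of all genes were lowest there. In the other groups this count reached 7 of 10, in NOD.Idd2 dendritic cell replicate 1 (30.3% of all genes) and NOD.Idd2 B cell replicate 3 (35.1%).

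The differences of the other receptors among the 10 were smaller in dendritic cells. Tlr2 averaged 53.0 ± 1.57 CPM in NOD and 57.5 ± 0.915 CPM in NOD.Idd2 (log2 0.13, SE 0.06, adjusted p = 0.389). Tlr4 averaged 13 ± 0.516 and 15.1 ± 0.864 CPM (log2 0.22, SE 0.09, adjusted p = 0.380), and Tlr3 95.1 ± 4.49 and 107 ± 10.5 CPM (log2 0.19, SE 0.07, adjusted p = 0.326). Tlr1, Tlr6, Tlr9 and Tlr13 differed by at most 0.06 in size on the log2 scale, less than the SE of each. Tlr8 differed by 0.21 (SE 0.12) and Tlr11 by 0.11 (SE 0.05), neither called. Among dendritic cells the summed monocyte markers lay at 587 to 604 CPM in NOD.Idd2 and 379 to 551 CPM in NOD, without overlap. Of these 8 markers 0 were called and 6 had a log2 difference above 0. Ccr2 held the largest part of the sum, at 360 ± 4.97 CPM in NOD.Idd2 and 246 ± 57.6 CPM in NOD. Ly6c2 lay the other way, at 0.592 and 0.714 CPM. The sums for plasmacytoid dendritic cells, which are rich in Tlr7, overlapped at 243 to 275 and 210 to 260 CPM, with 0 of 8 tested called. Tcf4 held the largest part of these, at 161 ± 10.3 and 143 ± 15.2 CPM, and Siglech averaged 17.1 ± 1.93 and 13.1 ± 3.38 CPM. The summed neutrophil markers lay lower in NOD.Idd2, at 61.9 to 78.6 CPM against 79.5 to 91.4 CPM. Mmp9 held most of that sum, at 42.0 ± 3.85 CPM in NOD.Idd2 and 61.9 ± 3.27 CPM in NOD. It was the 1 of 6 tested that was called lower. Of these 6 markers 5 had a log2 difference above 0, and the median was 0.38. The sums of conventional dendritic cell markers overlapped, at 3905 to 4138 CPM in NOD.Idd2 and 4076 to 4278 CPM in NOD for type 1. For type 2 they were 2605 to 2730 and 2433 to 2704 CPM. In NOD.Idd2 1 of 10 type 1 markers, a list that holds Tlr3, was called lower and 2 of 10 type 2 markers higher. Over all genes 1.29% were called. In each list 6 of 10 had a log2 difference above 0, with a median of 0.06 for type 1 and 0.15 for type 2. Wdfy4 held most of the type 1 sum, at 2679 ± 67.0 CPM in NOD.Idd2 and 2864 ± 138 CPM in NOD. The part of all these cells in the receptor differences was not tested. As a ratio within each library, Tlr7 stood at 0.871 ± 0.0523 times the Tlr9 level per kb in NOD dendritic cells and 0.721 ± 0.0255 times in those of NOD.Idd2, without overlap, and at 0.596 ± 0.0196 and 0.595 ± 0.0625 times in the B cells of the strains. Tlr7 lies 1.46 Mb from Arhgap6, the nearest of 7 genes called on the X chromosome, and Tlr9 lies 2.99 Mb from Trf, the nearest of 20 called on chromosome 9. Tlr8 lies 1.53 Mb from Arhgap6, Tlr4 2.92 Mb from Gm11222 and Tlr2 4.24 Mb from Iqgap3. The remaining receptors lie 13.1 to 32.2 Mb from the nearest called gene.

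**Figure D4:**
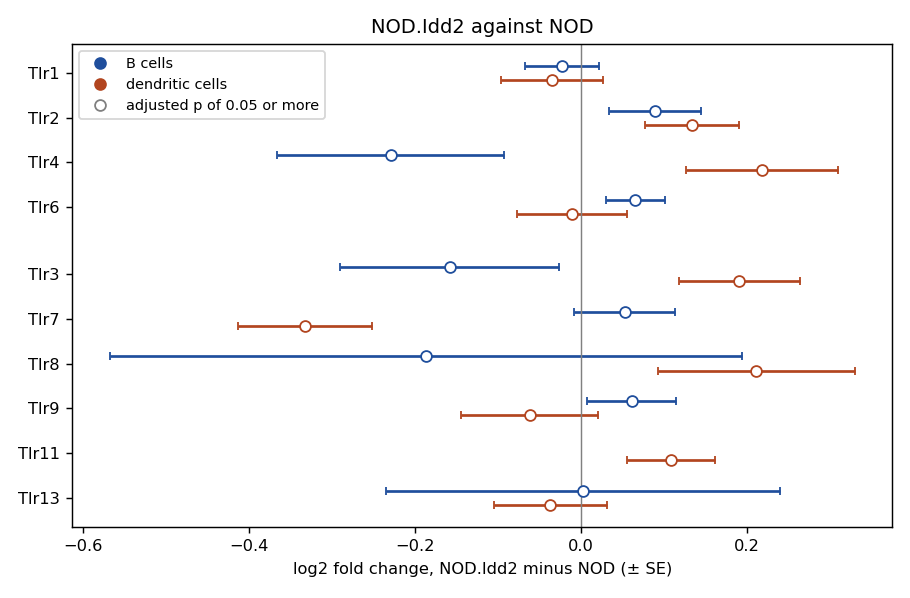
Log2 difference of NOD.Idd2 minus NOD with its SE for each receptor, in B cells and in dendritic cells. All symbols are open because none of the 10 receptors was called, Tlr11 was not tested in B cells, and Tlr7 in dendritic cells lies farthest below 0, at -0.33.

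**Figure D5:**
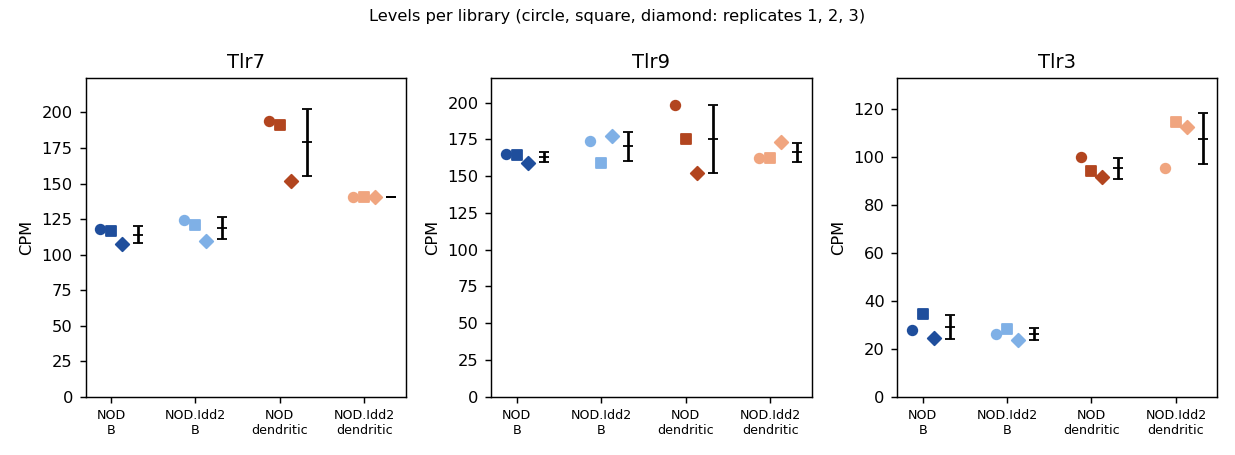
CPM of Tlr7, Tlr9 and Tlr3 in every library (circle, square and diamond for replicates 1, 2 and 3) with group mean and SD. Tlr7 lies near 140 CPM in the 3 NOD.Idd2 dendritic cell libraries and at 152 to 194 CPM in those of NOD, and the diamond is the lowest NOD dendritic cell value for each of the genes shown.

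Whether the strain difference itself differed between cell types was tested as dendritic minus B cells in the fit of all 12 libraries. By edgeR 0 of 10 receptors were called, where 0.109% of all genes were called. At an unadjusted p under 0.05 there were 2, Tlr4 and Tlr7, against 8.22% of all genes, and DESeq2 and limma-voom called 0. The difference was 0.43 for Tlr4 (SE 0.17, adjusted p = 0.529), lower in NOD.Idd2 B cells and higher in NOD.Idd2 dendritic cells by the means. For Tlr7 it was -0.40 (SE 0.12, adjusted p = 0.348). Without NOD dendritic cell replicate 3 it was -0.51 for Tlr7 and called (adjusted p = 0.0469). This comparison uses the same libraries as the 2 strain comparisons and is no further evidence for either.

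Of the 90 other pathway genes, 0 of 78 tested were called between strains in B cells and 1 of 82 in dendritic cells, beside 0.16% and 1.29% of all genes. A single call among 82 genes is about what the background share gives. The gene was Tnf, the tumour necrosis factor cytokine that Toll-like receptors induce, at chr17:35199381-35202007. It read 18.3, 21.8 and 23.0 CPM in NOD dendritic cells and 15.5, 12.8 and 12.5 CPM in those of NOD.Idd2, so the groups did not overlap, and fell by 0.61 on the log2 scale (SE 0.11, adjusted p = 0.0195). In B cells it read 23.3, 24.0 and 23.2 CPM in NOD and 29.0, 26.3 and 27.0 CPM in NOD.Idd2 and was not called, and the difference between the cell types was -0.84 (SE 0.13, adjusted p = 0.0398). The dendritic cell call was lost without NOD replicate 2 (adjusted p = 0.0790), NOD.Idd2 replicate 2 (0.163) or NOD.Idd2 replicate 3 (0.115). The call of the difference was lost in 10 of 12 fits that each left out 1 library, at adjusted p from 0.0620 to 0.149. Unc93b1, on which the endosomal receptors depend, averaged 790 ± 49.8 CPM in NOD and 715 ± 26.1 CPM in NOD.Idd2 dendritic cells and was not called (log2 -0.13, SE 0.05, adjusted p = 0.402).

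For each receptor the genes whose profile over the 12 libraries was most alike were found among 12961 genes, by the root mean square difference of centred log2 CPM. The closest was Las1l for Tlr1, at 0.04, and Tmem143 for Tlr7, at 0.08, which averaged 7.19, 7.73, 10.8 and 9.02 CPM in B cells of NOD and NOD.Idd2 and then dendritic cells of NOD and NOD.Idd2. Champ1 for Tlr6, Ext1 for Tlr2 and Plpp6 for Tlr9 were at 0.04, 0.05 and 0.05. Brip1 for Tlr3 and Sypl for Tlr4 were at 0.10 and 0.14. The dendritic cell receptors had looser matches, Tgfbi for Tlr13 at 0.17, Lrp1 for Tlr8 at 0.19 and Rtn1 for Tlr11 at 0.31. Within the family Tlr1 and Tlr6, the neighbours on chromosome 5, differed by 0.12 in this measure.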

How the data were processed

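Poly(A)-selected RNA from spleen B cells and dendritic cells of NOD and NOD.Idd2 mice was, per the labels' protocols, extracted with Trizol and built into 12 libraries with KAPA HyperPrep. STAR, with the version written 0.12.2, and the build GRCm38 are named in the submitters' processing notes. The sources used here do not name the counting tool, the annotation or the use of strand. Raw counts per gene symbol were used as deposited by the authors. Their table of normalized values was not used. Samples were grouped by title.

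CPM were computed with TMM scaling over all 12 libraries in edgeR 4.0.16 under R 4.3.3, and divided by the union of exons in GENCODE (GRCm38) for levels per kb. Genes were kept by filterByExpr (minimum count 10, minimum total 15). The test was edgeR's quasi-likelihood test, run for strain on 6 libraries per cell type, and for cell type and the difference of strain effects on the 12 libraries together, with Benjamini-Hochberg adjustment over all genes tested and a threshold of 0.05. The approximate 95% intervals are the difference ± 1.96 SE. Scripts were tested on simulated data.

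The receptors and the gene lists were chosen with earlier results of these data known. Named genes were the 10 receptors, up to 4 called members of each pathway list per comparison with the smallest p, of which the text gives a selection, and the genes of most similar profile. Unc93b1 and the marker genes were named beyond this rule. Same-numbered B cell libraries of the strains deviated from their group means together (correlations 0.617, 0.407 and 0.815), so the numbers were taken to pair them. NOD replicates 1 and 2 also correlated at 0.427 and 0.466 with the other number, and for replicate 2 this was above the 0.407 with its own. Dendritic cell libraries (-0.0036, 0.013 and 0.054) were not paired. Alternatives were DESeq2 1.42.0, limma-voom (limma 3.58.1), RLE size factors, a joint fit of the 12 libraries, no filter, a filter at 1 CPM in 3 libraries, the replicate block, both B cell replicates numbered 3 left out, and each library left out. The principal transcript as gene length, Tlr5 among the surface receptors and the direction within same-numbered B cell libraries were added after seeing the data.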

Additional observations from a re-analysis of the deposited data

Results flagged for a closer look

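The strain difference of Tnf, a response gene of the pathway, differed between the cell types: the log2 difference of NOD.Idd2 minus NOD in dendritic cells, less that in B cells, was -0.84 (edgeR quasi-likelihood test over all genes, adjusted p = 0.0398). Tnf was lower in NOD.Idd2 dendritic cells than in those of NOD in 3 of 3 libraries. The call was kept without NOD dendritic cell replicate 1 (adjusted p = 0.0151) and without NOD.Idd2 dendritic cell replicate 1 (0.0274), and lost without any other single library.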

How the results depend on the processing

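The count of called receptors kept to 0 in B cells under every alternative run, including the replicate block, and to 9 of 10 between cell types, except for 10 in NOD without NOD dendritic cell replicate 3. In the dendritic cell strain comparison it was 1 (Tlr7) with DESeq2 and with no filter on low counts, and 0 to 1 with each library left out. In the difference of strain effects it was 0 to 1 with each library left out. Over all genes the 24 calls in B cells became 122 with DESeq2, 42 in the fit of all 12 libraries, 156 with the replicate block and 46 without both replicates numbered 3, and ranged from 13 to 18 with each library left out. The 186 calls in dendritic cells became 296 with DESeq2, 700 with no filter and 94 in the fit of all 12 libraries, and ranged from 63 to 332 with each library left out. The 18 calls of the difference became 114 with DESeq2, 33 with no filter and 56 with the replicate block within cell type, and ranged from 7 to 19. The replicate block changed no receptor's call.

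Differences near 0 changed sign. In B cells Tlr13 (0.0027) read -0.0019 with DESeq2, -0.00048 with RLE, -0.0010 with no filter and -0.0017 in the fit of all 12 libraries, and -0.11 to 0.19 with each library left out. Tlr8 read 0.18 without both replicates numbered 3, and -0.45 to 0.056 with each library left out. In dendritic cells, leaving out each library gave -0.11 to 0.0032 for Tlr1, -0.063 to 0.033 for Tlr6, -0.16 to 0.036 for Tlr9 and -0.10 to 0.024 for Tlr13. For the difference it gave -0.10 to 0.021 for Tlr1, -0.014 to 0.055 for Tlr2 and -0.25 to 0.066 for Tlr13. Tlr9 between cell types in NOD.Idd2 read 0.0021 with DESeq2 and 0.0029 with RLE, and -0.087 to 0.023 with each library left out. RLE moved the median of all genes by at most 0.039 on the log2 scale. The cause of these changes was not tested. Depth limits Tlr11, Tlr13 and Tlr8 in B cells, where they had 18 to 118 counts per group.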
